A study of Mus musculus with 31 samples.

Results

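The phagocyte NADPH oxidase is described here through 5 of its genes: Cybb, Cyba, Ncf1, Ncf4 and Rac2. They were chosen by symbol from a count table of 24411 entries, with earlier results of these data known, and all 5 had a row and were tested. The libraries are bulk RNA-seq of sorted Ly6C-high monocytes, in 3 groups of 3 libraries: healthy blood, LLC blood (from animals with a Lewis lung carcinoma, a mouse lung tumor line that is transplanted) and LLC tumor (monocytes taken from that tumor). Every group came from C57BL/6J mice, the tumors were grown under the skin, and the labels name no transgene or drug in any group. The cells were gated per the labels as CD11b+, Ly6G-, Ly6C-high and MHC-II-. That gate is meant to leave out neutrophils by Ly6G, and macrophages or dendritic cells that carry MHC-II. RNA of markers of these cells was still counted, as given below. The labels do not give age or sex, do not say whether a library is 1 mouse or a pool, and do not say whether blood and tumor came from the same mice, so p-values measure the spread between these samples. The heads of the blood columns carry the letters BM, read as blood monocyte from the sample descriptions rather than bone marrow, which the values alone cannot settle. The other 22 of the 31 samples of the series, which profile chromatin in blood monocytes, were not analysed here.

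The phagocyte oxidase moves electrons from NADPH in the cytosol across a membrane to oxygen and so makes superoxide, which phagocytes use to kill microbes and which other cells also meet as a signal. Its catalytic core is a membrane flavocytochrome of a large glycoprotein (Cybb, also called gp91phox or NOX2) and a small partner (Cyba, p22phox). In resting cells a cytosolic complex that holds p47phox (Ncf1) and p40phox (Ncf4) lies apart from it, and after phosphorylation that complex and a Rac GTPase (Rac2 in hematopoietic cells, Rac1 in nearly all cells) join the flavocytochrome to switch it on. Loss of the oxidase in people causes chronic granulomatous disease, and in tumors superoxide is known as a means by which myeloid-derived suppressor cells restrain T cells.

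The genes lie on 4 mouse chromosomes (GRCm38, the NCBI name of mm10, from RefSeq). Cybb (ENSMUSG00000015340) spans chrX:9435252-9487766, Cyba (ENSMUSG00000006519) spans chr8:122424771-122432940, Ncf1 (ENSMUSG00000015950) spans chr5:134220053-134229628, Ncf4 (ENSMUSG00000071715) spans chr15:78244164-78262582 and Rac2 (ENSMUSG00000033220) spans chr15:78559169-78572783. Promoter sequence from RefSeq (GRCm38.p6) was matched for 3 of the 5 genes. It runs 5′ to 3′ on the minus strand, from 250 bases before the start site to 50 bases from it on, and is shown because these genes range from the largest fall in tumors (Cybb) to a small one (Cyba). Capitals mark matches to GGAA and GAAA with 2 bases between (the composite site of PU.1-type and IRF-type factors), to the box CCAAT and to the GC box GGGCGG, each searched on both strands.
Cybb, chrX:9469275-9469574: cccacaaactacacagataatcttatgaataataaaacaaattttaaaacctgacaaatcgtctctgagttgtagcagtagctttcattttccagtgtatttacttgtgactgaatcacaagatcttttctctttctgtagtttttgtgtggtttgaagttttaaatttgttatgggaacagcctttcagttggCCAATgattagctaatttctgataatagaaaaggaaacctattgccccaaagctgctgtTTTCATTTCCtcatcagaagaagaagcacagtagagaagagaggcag
Cyba, chr8:122432891-122433190: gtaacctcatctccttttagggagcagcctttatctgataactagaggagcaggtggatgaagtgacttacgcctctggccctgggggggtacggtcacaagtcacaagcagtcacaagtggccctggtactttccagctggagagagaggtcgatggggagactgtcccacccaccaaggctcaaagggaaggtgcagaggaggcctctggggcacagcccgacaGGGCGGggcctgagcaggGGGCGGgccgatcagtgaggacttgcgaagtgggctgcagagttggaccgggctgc
Ncf1, chr5:134229576-134229875: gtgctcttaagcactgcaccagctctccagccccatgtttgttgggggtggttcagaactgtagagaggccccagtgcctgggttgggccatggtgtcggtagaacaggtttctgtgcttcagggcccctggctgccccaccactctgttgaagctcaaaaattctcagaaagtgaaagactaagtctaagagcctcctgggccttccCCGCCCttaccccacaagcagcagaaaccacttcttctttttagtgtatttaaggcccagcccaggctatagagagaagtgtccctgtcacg
The Cybb window lies inside the gene span given above, so its start site is an internal one of that span, while the other windows lie at the end of theirs. It held the composite letters on the reverse strand (TTTCATTTCC as printed) at bases 4 to 13 after the start site, and a CCAAT box at bases -56 to -52. The Cyba window held GC boxes at -24 to -19 and at -6 to -1, and the Ncf1 window held one on the reverse strand at -42 to -37. Of 32851 RefSeq promoter windows of this length, 2.72% held the composite letters, 37.4% a CCAAT box and 35.7% a GC box, so the last 2 are common. The letters GAGGAAGT (3.2% of windows) and ACGTG (19.6%) were not in these 3 windows. A match is a description of letters; binding at these places was not measured here.

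Levels are given as CPM (each count divided by its library's total and scaled to the usual unit), and changes as log2 fold changes ± SE from edgeR's quasi-likelihood test on all 9 libraries, with Benjamini-Hochberg adjusted p over 12337 genes and a call at an adjusted p under 0.05. The CPM do not use the normalization factors that enter the changes, so the ratio of group CPM can differ from the change given beside it. Total counts ran from 10457492 to 20706412 per library. Summed monocyte markers stood at 32800 to 36600 CPM in healthy blood, 23400 to 26800 in LLC blood and 13400 to 17300 in LLC tumors, and summed macrophage markers at 334 to 353, 325 to 359 and 892 to 1460. Of 7 monocyte markers tested, 1 was called lower and 1 higher in blood, and 4 lower and 2 higher in each tumor comparison. Of all genes tested, 9.61% fell and 14.0% rose in blood. In tumor against LLC blood 31.7% fell and 29.6% rose, and against healthy blood 33.0% fell and 33.5% rose. Of 6 macrophage markers tested, 4 were called lower and 0 higher in LLC blood against healthy blood, and 1 lower and 5 higher in each tumor comparison. Neither sum so stands for every marker of its list. LLC tumor library 1 stood apart from the other tumor libraries, with a normalization factor of 0.7984 where the other 8 libraries had 0.9675 to 1.067. Calls of the 5 oxidase genes that differ without it are given both ways.

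In blood, none of the 5 genes was called between tumor-bearing and healthy mice (0 of 5, where 14.0% of all genes tested rose, 9.61% fell and so 23.6% were called), and none of the 5 reached an unadjusted p under 0.05 in edgeR. Without tumor library 1, 3 of the 5 were called in blood, and of all 12864 genes tested there 2181 rose and 2883 fell. Without LLC blood library 2, 0 of the 5 were called, and 1027 of 12719 genes rose and 467 fell. In LLC tumors, Cybb, Ncf1 and Rac2 fell against LLC blood (3 of 5), where 31.7% of all genes fell, 29.6% rose and 61.3% were called in either direction. Against healthy blood Cyba joined them (4 of 5, where 33.0% of all genes fell, 33.5% rose and 66.5% were called). Cybb stood far from the others with a 3.33-fold fall against LLC blood, while Rac2 fell 1.55-fold and Ncf1 1.34-fold. In CPM, 2 of the 5 lay lower in LLC than in healthy blood, without overlap (Cyba and Rac2, as did 23.8% of all genes) and 1 higher (Ncf4, 27.5%). All 5 lay lower in tumors than in LLC blood with no overlap (44.8% of all genes, and 23.5% higher), and 4 lay lower than in healthy blood (43.7%, and 26.9% higher). These orders rest on library totals. After scaling by the normalization factors, tumor library 1 lies above all LLC blood libraries for Cyba and Ncf4, and among the healthy blood libraries for Cyba. The median log2 change of the 5 genes was -0.10 in blood, -0.42 in tumor against LLC blood and -0.52 in tumor against healthy blood, beside -0.01, -0.03 and -0.00 for all genes tested. Both tumor comparisons share the tumor libraries, and both comparisons with LLC blood share those, so they do not count as separate evidence. In bulk RNA, fewer cells of a type and less RNA per cell cannot be told apart.

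**Figure D1:**
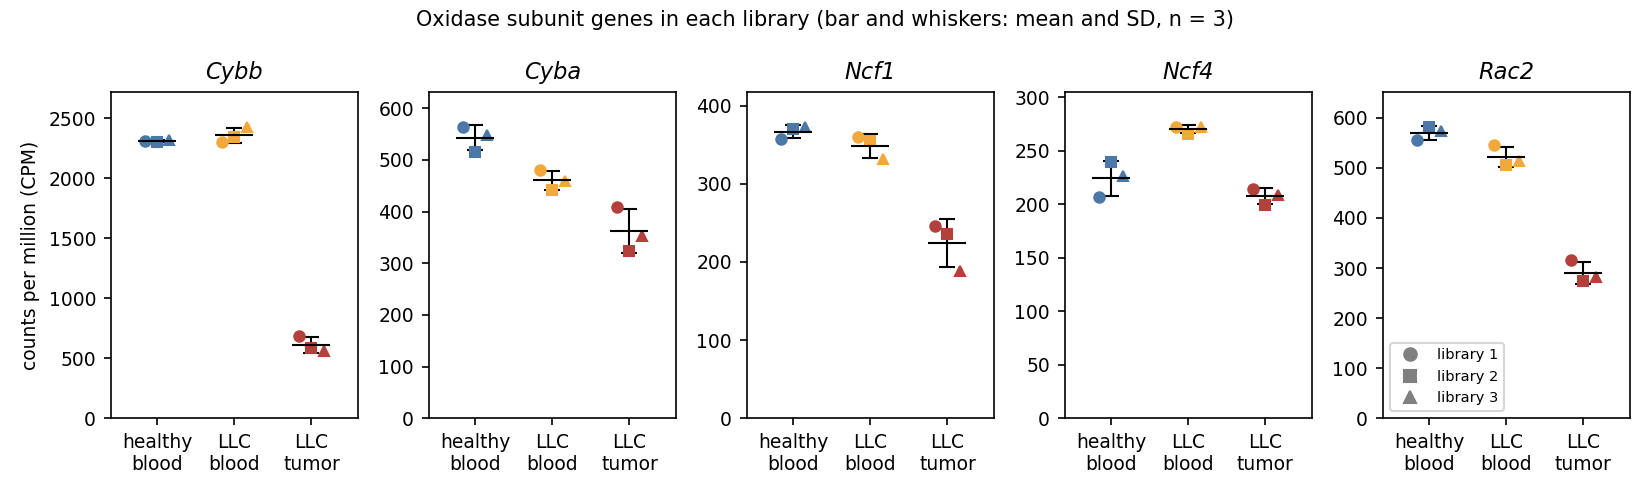
CPM (y axis, from 0) of the 5 oxidase genes in each library of the 3 groups (x axis); symbols give the library number, and the bar and whiskers the mean and SD of 3 libraries. Cybb in tumors sits between 557.1 and 688.1 CPM, far below the 2300 to 2427 CPM of the blood libraries, while Ncf4 in tumors overlaps healthy blood.

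Cybb encodes the electron-carrying subunit, which binds NADPH, FAD and heme. Its level was 2309, 2300 and 2318 CPM in healthy blood, 2302, 2347 and 2427 CPM in LLC blood, and 688.1, 581.4 and 557.1 CPM in LLC tumors. The blood groups overlapped, and all 3 tumor libraries lay far below them. The blood change was 0.00 ± 0.16 (edgeR adjusted p = 0.994), and its sign turned in 7 of 17 alternatives. Against LLC blood Cybb fell by 1.73 ± 0.16 on the log2 scale in tumors (edgeR adjusted p = 1.54e-05). Against healthy blood it fell by 1.73 ± 0.16 (adjusted p = 1.33e-05). Ordered from the lowest change in tumor against LLC blood, Cybb ranked 503 of 12337 genes, and 143 of the 6904 whose mean reached 20 CPM. The call held under all 17 alternatives, between -1.95 and -1.63.

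Cyba encodes p22phox, which anchors and stabilizes the large subunit and gives p47phox its docking site. Its level was 563.8, 515.9 and 548.6 CPM in healthy blood, 479.8, 441.3 and 459.5 CPM in LLC blood, and 408.0, 324.6 and 352.5 CPM in tumors. The libraries fell in the order healthy blood, LLC blood, tumor with no overlap in CPM. That order rests on library totals: after TMM scaling the changes were -0.27 ± 0.15 in blood (edgeR adjusted p = 0.239) and -0.13 ± 0.15 in tumor against LLC blood (adjusted p = 0.489), neither called. Against healthy blood Cyba fell by 0.39 ± 0.15 in tumors (edgeR adjusted p = 0.0442). The call did not survive in 8 of 17 alternatives, among them those without healthy blood library 1 or 3, LLC blood library 1 or 3, or tumor library 2 or 3, with adjusted p up to 0.139. Without tumor library 1, Cyba was called lower in blood (-0.32, adjusted p = 0.00774) and in tumor against LLC blood (-0.32, adjusted p = 0.00675).

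The flavocytochrome's partners so moved by unequal amounts. The ratio of Cybb to Cyba counts, whose absolute value depends on transcript lengths and is read here only between groups, was 4.1, 4.46 and 4.23 in healthy blood, 4.8, 5.32 and 5.28 in LLC blood, and 1.69, 1.79 and 1.58 in tumors. The groups did not overlap. The tumor ratio was 3.05-fold below that of LLC blood and 2.53-fold below that of healthy blood, many times the SD within a group (0.06 to 0.09 on the log2 scale, n = 3). No test across genes applies to a ratio, and with 3 libraries against 3 the smallest two-sided exact permutation p is 0.1. A ratio within a library needs no scaling, so it shows that the pair changed unequally, not which gene moved.

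**Figure D2:**
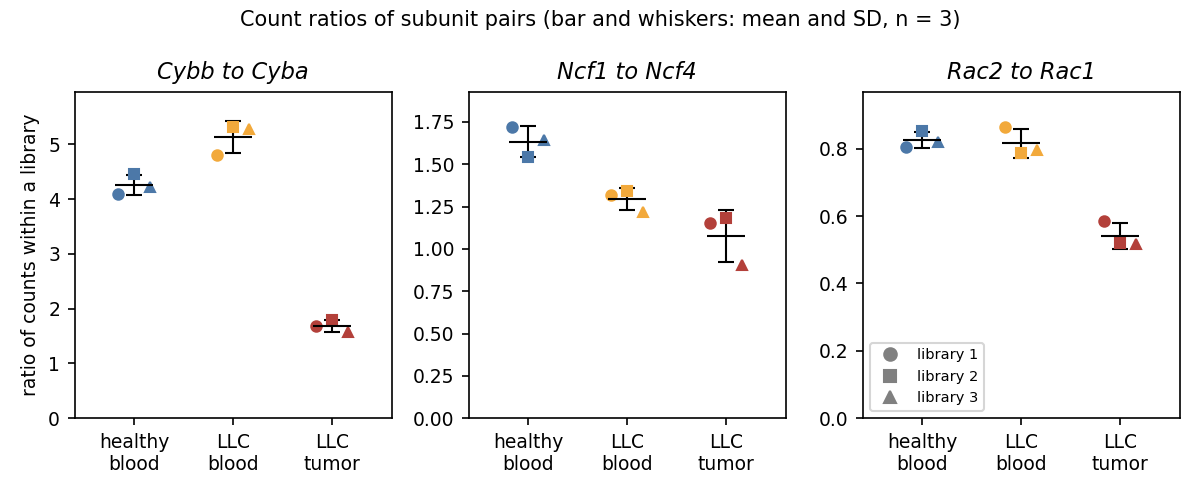
Ratio of counts within each library (y axis, from 0) for Cybb to Cyba, Ncf1 to Ncf4 and Rac2 to Rac1 in the 3 groups (x axis); bar and whiskers are the mean and SD of 3 libraries. Cybb to Cyba drops from 4.8 to 5.32 in LLC blood to 1.58 to 1.79 in tumors, and Rac2 to Rac1 drops from 0.788 to 0.865 to 0.517 to 0.586.

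Ncf1 encodes p47phox, the organizer whose phosphorylation by protein kinase C and other kinases exposes the domains that bind p22phox. Its level was 357.1, 369.9 and 372.8 CPM in healthy blood, 360.4, 355.1 and 331.4 CPM in LLC blood, and 246.6, 236.3 and 188.6 CPM in tumors. The blood groups overlapped and the tumor libraries lay below both. The change was -0.10 ± 0.14 in blood (edgeR adjusted p = 0.663). In tumors Ncf1 fell by 0.42 ± 0.14 against LLC blood (edgeR adjusted p = 0.0276) and by 0.52 ± 0.14 against healthy blood (adjusted p = 0.00965). The first of these calls was lost without LLC blood library 1 (-0.42, adjusted p = 0.0583), tumor library 2 (-0.39, adjusted p = 0.0721) or tumor library 3 (-0.28, adjusted p = 0.0806), and when only the 6 libraries compared were fitted (-0.40, adjusted p = 0.0717). The second held under all 17 alternatives.

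Ncf4 encodes p40phox, whose PX domain binds the phosphoinositide of phagosome membranes. Its level was 207.3, 239.8 and 226.8 CPM in healthy blood, 272.1, 265.8 and 272.4 CPM in LLC blood, and 214.8, 199.6 and 209.1 CPM in tumors. In CPM, all 3 LLC blood libraries lay above all 6 others, and tumor and healthy blood overlapped. The place of tumor library 1 rests on library totals: after TMM scaling it lies above all 3 LLC blood libraries. Ncf4 was the only one of the 5 whose CPM did not overlap between the blood groups with LLC blood on top. No change of Ncf4 was called: 0.24 ± 0.11 in blood (edgeR adjusted p = 0.154), -0.17 ± 0.11 in tumor against LLC blood (adjusted p = 0.218) and 0.07 ± 0.11 in tumor against healthy blood (adjusted p = 0.591). The last of these turned negative under upper-quartile factors, library totals and limma-voom, and without tumor library 1 (-0.09). Without tumor library 1, Ncf4 was called higher in blood (0.19, adjusted p = 0.0442) and lower in tumor against LLC blood (-0.28, adjusted p = 0.00802).

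The ratio of Ncf1 to Ncf4 counts was 1.72, 1.54 and 1.64 in healthy blood, 1.32, 1.34 and 1.22 in LLC blood, and 1.15, 1.18 and 0.902 in tumors. The groups did not overlap in that order, and the step from LLC blood to tumor (-0.27 on the log2 scale) was near the SD among tumor libraries (0.22).

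Rac2 encodes the Rac GTPase of hematopoietic cells, which joins the oxidase in its GTP-bound form. Its level was 555.1, 581.8 and 572.8 CPM in healthy blood, 545.2, 506.7 and 513.4 CPM in LLC blood, and 315.4, 273.4 and 281.6 CPM in tumors. The groups did not overlap, and the step between the blood groups was small beside the step to tumors. The blood change was -0.15 ± 0.13 (edgeR adjusted p = 0.433), called only without tumor library 1 (-0.21, adjusted p = 0.0251), by limma-voom (-0.18, adjusted p = 0.0331) and in the fit of the 6 blood libraries (-0.16, adjusted p = 0.0489). Rac2 fell by 0.63 ± 0.13 in tumors against LLC blood (edgeR adjusted p = 0.00238) and by 0.78 ± 0.13, or 1.72-fold, against healthy blood (adjusted p = 0.000584), and both calls held under all 17 alternatives. Its counts had decimals in 8 of 9 libraries, so some of its reads were divided between it and other entries; those of Cybb, Cyba and Ncf4 were whole in all 9.

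Rac1, the ubiquitous relative, stood at 690.0 ± 8.60 CPM in healthy blood, 639.3 ± 7.93 in LLC blood and 536.0 ± 9.59 in tumors (SD, n = 3 each). After TMM scaling its tumor change against LLC blood was -0.05 ± 0.10 (edgeR adjusted p = 0.709), slightly positive under DESeq2's size factors, and called lower only by library totals (-0.25, adjusted p = 0.00226). In blood Rac1 was not called (-0.14, edgeR adjusted p = 0.362), but lower without tumor library 1 (-0.19, 0.018) and in the fit of the 6 blood libraries (-0.145, 0.0383). In tumor against healthy blood it was not called (-0.18, edgeR adjusted p = 0.136). There it was called lower without tumor library 1 (-0.32, adjusted p = 0.000855). It was also called lower there with upper-quartile factors (adjusted p = 0.00697), library totals (0.000232) and limma-voom (0.00171). The ratio of Rac2 to Rac1 counts was 0.806, 0.853 and 0.819 in healthy blood, 0.865, 0.788 and 0.796 in LLC blood, and 0.586, 0.52 and 0.517 in tumors. It overlapped between the blood groups and was 1.51-fold lower in tumors than in LLC blood with no overlap. The GTPase pair, like the flavocytochrome pair, so changed unequally between blood and tumor.

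**Figure D3:**
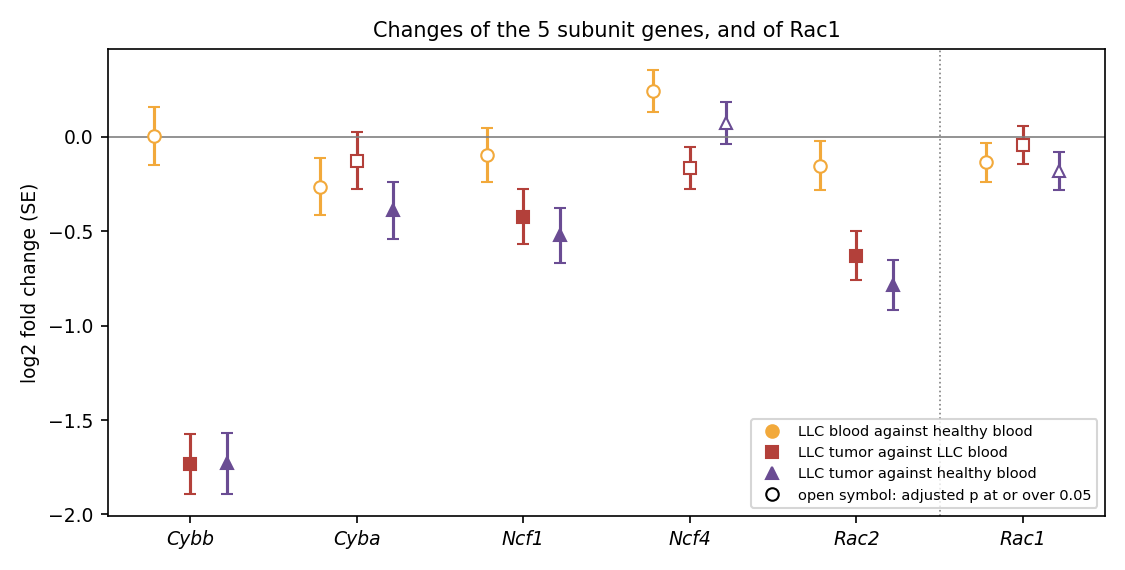
Log2 fold change with SE (y axis) of the 5 oxidase genes, and of Rac1 right of the dotted line, in 3 comparisons from edgeR; filled symbols have an adjusted p under 0.05. Cybb lies near -1.73 in both tumor comparisons and at 0.00 in blood, and Ncf4 has no filled symbol.

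Other members of the oxidase family were mostly low or not called. Of the list of 15 other oxidase genes, 14 were in the table and 6 passed the filter on low counts; Cybc1 was not used here. In tumor against LLC blood 1 of these 6 was called higher and 1 lower, where 29.6% of all genes tested rose and 31.7% fell. The gene called lower was Rap1a, a small GTPase found with the flavocytochrome, which fell by 0.41 ± 0.15 from 342.1 to 221.2 CPM (edgeR adjusted p = 0.0367). In 7 of 17 alternatives Rap1a was not called, among them those without healthy blood library 2, LLC blood library 1 or 3, or tumor library 2 or 3. In tumor against healthy blood Rap1a fell by 0.735 ± 0.149 (edgeR adjusted p = 0.00182). The gene called higher in tumor against LLC blood was Rac3, from 0.8151 to 3.717 CPM. It lies below the level set for naming and is named because the count is 1. Without tumor library 1 the counts were 2 higher and 3 lower, where 4416 of 12864 genes tested rose and 4220 fell. Hvcn1, the proton channel that offsets the charge the oxidase moves, was the 1 gene of the list called in blood, where 9.61% of all genes fell. Without tumor library 1, 3 of the list were called lower in blood, as were 2883 of 12864 genes tested. The level of Hvcn1 was 12.92, 24.21 and 18.54 CPM in healthy blood, 9.935, 8.356 and 8.84 CPM in LLC blood, and 6.719, 5.643 and 4.751 CPM in tumors. Hvcn1 fell by 1.07 ± 0.25 in LLC blood (edgeR adjusted p = 0.0142), a call lost without LLC blood library 2 (adjusted p = 0.0636) or 3 (adjusted p = 0.0605). Without tumor library 1 it was also called lower in tumor against LLC blood (adjusted p = 0.0478). In tumor against healthy blood it fell by 1.515 ± 0.259 (edgeR adjusted p = 0.000656), a call held under all 17 alternatives. It overlaps Tctn1, with decimals in all 9 libraries. Summed markers of B cells, which also carry the channel and which a CD11b+, Ly6C-high gate is meant to leave out, were at 17.2 to 163 CPM in healthy blood, 10.4 to 13.8 in LLC blood and 1.72 to 1.95 in tumors, with Cd79a and Ms4a1 at 0 in all tumor libraries; their part in the result was not tested.

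Nox1 and Nox4, the catalytic subunits of other tissues, did not pass the filter. Nox1 had at most 6.403 counts in any library. Nox4 had a count of 0 in all 6 blood libraries, which allows up to 0.145 to 0.287 CPM (3 counts, counting error only), and 7, 25 and 29 counts in tumors (0.632, 2.216 and 2.506 CPM). Summed markers of fibroblasts, which the same gate is meant to leave out, stood at 844, 3260 and 3650 CPM in the same tumor libraries, beside 5.84 to 16.1 in healthy blood and 3.53 to 409 in LLC blood; their part in the Nox4 counts was not tested.

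The regulators around the oxidase were read from 5 further lists. In tumor against LLC blood, 45 of 77 tested genes of these lists fell and 16 rose. Of all genes tested 31.7% fell and 29.6% rose, the shares to set beside each list's counts. Of 17 Rac regulators, 12 fell and 2 rose (1 without LLC blood library 2 or 3), with a median of -0.70. Prex1, an exchange factor for Rac, fell by 1.39 ± 0.10 from 547.0 to 181.0 CPM (edgeR adjusted p = 3.15e-06). Arhgef6, another exchange factor, fell by 1.43 ± 0.08 (edgeR adjusted p = 7.95e-07). Bcr, which speeds GTP hydrolysis on Rac, fell by 1.26 ± 0.16 (edgeR adjusted p = 0.000116). Racgap1, of the same class and also needed for cell division, fell by 1.71 ± 0.29 (edgeR adjusted p = 0.00067). So both activators and inactivators of Rac were among the genes that fell.

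Of 23 genes of the list of activating kinases and lipid signaling, 13 fell and 3 rose, with a median of -0.32. Prkcb, the protein kinase C isoform best known for phosphorylating p47phox, fell by 1.63 ± 0.08 from 245.8 to 69.16 CPM (edgeR adjusted p = 3.32e-07). Irak4, the kinase of Toll-like receptor signaling, fell by 1.43 ± 0.08 (edgeR adjusted p = 6.34e-07). Pik3cd, the leukocyte phosphoinositide kinase, fell by 1.36 ± 0.10 from 740.0 to 249.2 CPM (edgeR adjusted p = 4.29e-06). Pla2g4a, the cytosolic phospholipase that frees arachidonic acid, went the other way and rose by 1.39 ± 0.12 from 35.19 to 80.36 CPM (edgeR adjusted p = 9.96e-06).

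Of 11 transcription factors that act on oxidase genes, 7 fell and 3 rose, with a median of -0.55. Irf1, an interferon-induced factor, fell by 0.87 ± 0.26 (edgeR adjusted p = 0.015, and 0.0535 without tumor library 3). Cebpa, a factor of early myeloid cells, fell by 0.80 ± 0.28 (edgeR adjusted p = 0.0341), a call lost without LLC blood library 1 or 3 or tumor library 2 or 3. Cebpb, known for inflammatory myeloid genes, rose by 1.48 ± 0.10 from 249.2 to 604.2 CPM (edgeR adjusted p = 2.62e-06). Only 1 rose without LLC blood library 2.

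The enzymes that make the oxidase's fuel form the NADPH supply list. Of its 11 genes 8 fell and 1 rose, with a median of -0.37, where 31.7% of all genes fell. Nadk, which makes NADP, fell by 1.73 ± 0.09 from 936.3 to 246.2 CPM (edgeR adjusted p = 4.28e-07). G6pdx, the entry enzyme of the pentose phosphate pathway, fell by 1.49 ± 0.07 from 422.6 to 131.4 CPM (edgeR adjusted p = 4.75e-07). Idh1 and Taldo1 fell by 1.53 ± 0.08 and 0.82 ± 0.12 (edgeR adjusted p = 5.63e-07 and 0.000221). Fewer fell in the fit of the 6 libraries compared (4) and without tumor library 3 (4) or 2 (5), counts nearer to the share of all genes, and 3 rose without tumor library 1.

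Genes that dispose of superoxide and peroxide went both ways, as all genes did. Of 15 tested, 7 rose and 5 fell (29.6% and 31.7% of all genes), with a median of 0.19. Prdx6, a peroxiredoxin, rose by 2.27 ± 0.23 from 117.3 to 479.3 CPM (edgeR adjusted p = 2.5e-05), Txnrd1 by 1.30 ± 0.10 (adjusted p = 4.86e-06) and Sod2, the mitochondrial superoxide dismutase, by 0.86 ± 0.20 (adjusted p = 0.00422). Cat, catalase, fell by 0.97 ± 0.07 from 116.6 to 51.77 CPM (edgeR adjusted p = 2.56e-06). Summed macrophage markers were higher in every tumor library than in every blood library, as given above, and summed neutrophil markers lower, at 310 to 424 CPM against 726 to 887 in LLC blood and 668 to 766 in healthy blood. Of 10 neutrophil markers tested, 6 were called lower and 1 higher in tumor against LLC blood. Against healthy blood only 1 was called lower and 1 higher (33.0% and 33.5% of all genes), so that lower sum is not shared across the list. Neutrophils carry the oxidase genes too. Marker sums of LLC tumor cells or epithelium stood at 63.1 to 101 CPM in tumors, against 1.84 to 2.73 in LLC blood. Those of endothelium stood at 50.6 to 69.3 against 11.1 to 13.8, and those of platelets at 138 to 222 against 3.35 to 6.63. T and NK cell, B cell, erythroid and dendritic cell sums were lower in tumors than in LLC blood. The part of any of these marker groups in the changes was not tested.

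**Figure D4:**
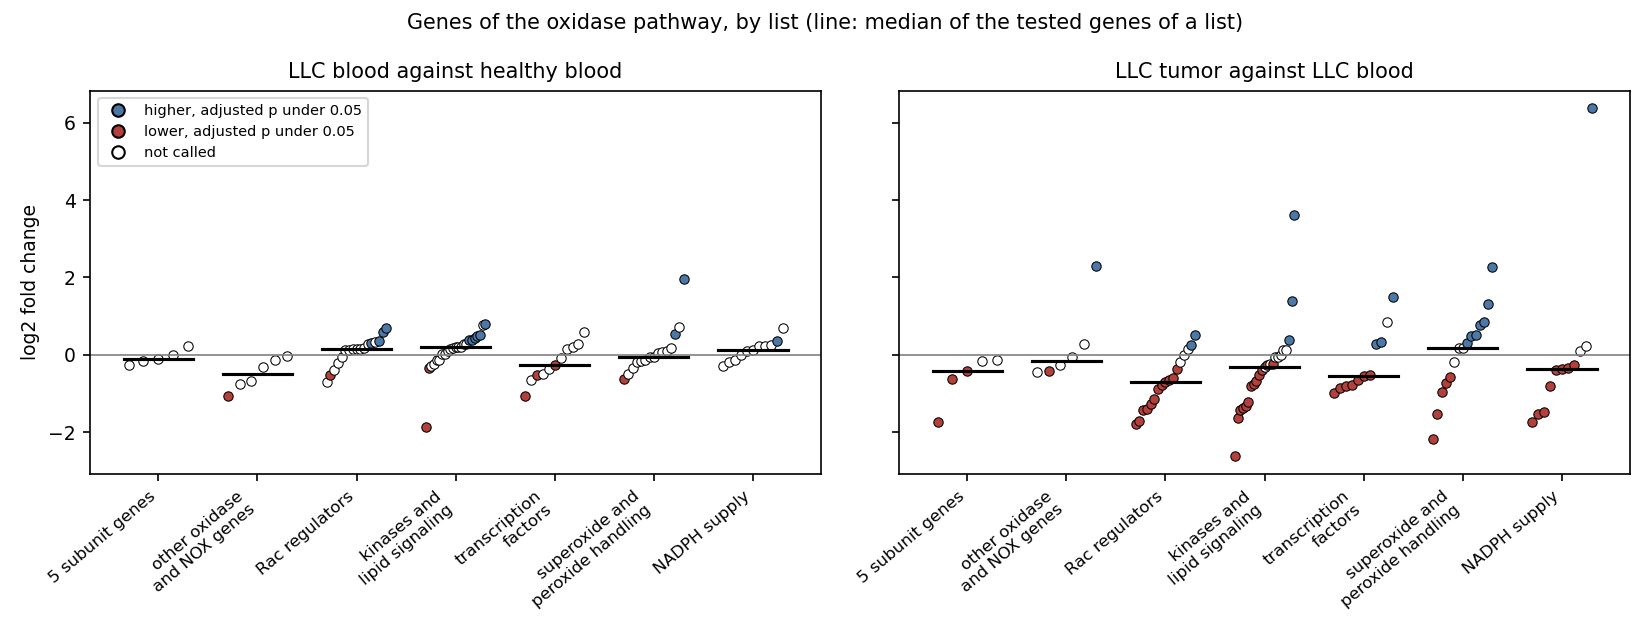
Log2 fold change (y axis, edgeR) of each tested gene of the 5 oxidase genes and the 6 pathway lists (x axis) in blood (left) and in tumor against LLC blood (right); lines are list medians and filled points have an adjusted p under 0.05. In tumors 12 of 17 Rac regulators and 8 of 11 NADPH supply genes are filled and lower; the highest point of the last list is Me1, a low gene named after its values were seen.

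In blood, of the 83 tested genes of all 6 lists, 13 rose and 8 fell in LLC blood against healthy blood. These are close to the shares of all genes, of which 14.0% rose and 9.61% fell. Leaving out a library gave 5 (without healthy blood library 2) to 20 (without tumor library 1) rising and 3 (without LLC blood library 2) to 23 (without tumor library 1) falling. Tiam1, a Rac exchange factor, rose by 0.71 ± 0.10 from 164.2 to 272.7 CPM (edgeR adjusted p = 0.00119). Arhgap15, which inactivates Rac, fell by 0.52 ± 0.10 from 161.4 to 114.9 CPM (edgeR adjusted p = 0.00618). Prkcb and Irak4, which fell in tumors, rose here by 0.48 ± 0.07 and 0.51 ± 0.07 (edgeR adjusted p = 0.0021 and 0.00169). Pld1, a phospholipase upstream of the oxidase, rose by 0.81 ± 0.09 (edgeR adjusted p = 0.000413). Cebpb fell by 0.52 ± 0.10 (edgeR adjusted p = 0.00612), Gpx4 by 0.62 ± 0.12 (adjusted p = 0.00588), and Txnrd1 rose by 0.54 ± 0.10 (adjusted p = 0.0047); these 8 calls held under all 17 alternatives. Bcr (0.59), Abr (0.35), Pik3cb (0.44), Cebpa (-1.07), Rela (-0.27) and Me2 (0.35) were also called, each lost without at least 4 of the libraries in turn. Summed T and NK cell markers stood at 163 to 417 CPM in healthy blood and 21.3 to 38.3 in LLC blood, with 8 of 8 lower, and dendritic cell markers at 70.2 to 85.0 and 24.2 to 39.2, with 4 of 5 tested lower. Summed neutrophil markers stood at 668 to 766 CPM in healthy blood and 726 to 887 in LLC blood, with 4 of 10 tested called higher and 0 lower. The part of these cells in the blood changes was not tested. LLC blood shares its libraries between this comparison and the tumor one, so an opposite sign in both is not separate evidence.

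Cybb's pattern over the 9 libraries was most like that of Cd300lb, a myeloid surface receptor, with a root mean square difference of 0.06 in centred log2 CPM among 6903 genes, and then of St8sia4 and Cd180 (0.10 each). Cd300lb stood at 269.0 ± 13.2, 272.8 ± 9.99 and 67.4 ± 5.07 CPM in the same order of groups, healthy blood first (SD, n = 3 each). For Rac2 the nearest were Cmtm6 (0.04), Dram1 (0.04) and Coro1a (0.05), an actin-binding protein of leukocytes at 2561 ± 112, 2373 ± 113 and 1261 ± 137 CPM. For Cyba they were Syf2, Pdcd2l and Alox5ap, for Ncf1 1810026J23Rik, Mrps30 and Ythdf2, and for Ncf4 Tssc1, Apmap and Tmem256, all at 0.04 to 0.08. The libraries share 3 groups, so these are patterns over groups more than over samples. The set nearest to each gene differed for all 5.

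Ncf4 and Rac2 lie 297 kb apart on chromosome 15, with 10 protein-coding genes between them in RefSeq, of which 6 were tested. In tumor against LLC blood Csf2rb and Csf2rb2, receptor chains for GM-CSF-type cytokines, rose by 0.71 ± 0.11 and 1.34 ± 0.14 (edgeR adjusted p = 0.000296 and 2.84e-05), and C1qtnf6 also rose. Il2rb, a receptor chain of T and NK cells, and Kctd17 fell, the latter with a call lost in 11 of 17 alternatives. Levels of C1qtnf6 (4.342 to 20.15 CPM), Il2rb (5.337 to 0.9403) and Kctd17 (14.61 to 9.607) were low. Neighbours of Rac2 so moved both ways where Rac2 itself fell. All genes tested also moved both ways, with 31.7% called lower and 29.6% higher. Csf2rb and Csf2rb2 are closely related copies, and the counting may divide reads between them.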

How the data were processed

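Gene expression was measured by RNA-seq (TRIzol RNA, TruSeq, HiScanSQ per the labels) in 9 libraries, 3 a group. The authors deposited a table of expected counts per gene symbol, not normalized, in which 8.56% to 9.73% of values per library have decimals. The submitters' processing notes name mm10, Trim Galore 0.6.7, cutadapt 3.4, STAR 2.6.1d, Salmon 1.9.0 and edgeR among the tools of all assays; which of them made this table is not given in the sources used here. A CPM table of the authors was not used.

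Counts were rounded and fitted in R 4.3.3 with edgeR 4.0.16 (quasi-likelihood, group only, TMM factors, filterByExpr, 12337 genes tested, Benjamini-Hochberg in each comparison). The SE is the log2 fold change over the root of F. CPM are counts over each library's total, so they can order libraries otherwise than TMM does. Alternatives were other factors, no filter, DESeq2 1.42.0, limma 3.58.1 (voom with quality weights), the 6 libraries compared, the replicate number as a block, a threshold of 0.01, and leaving out each library. From each list at most 4 called genes averaging 20 CPM or more were named, by size of change; Rac1, Hvcn1, Nox1 and Nox4 always were. Some genes that this rule names are not reported here. The members and lists were chosen with earlier results of these data known. Likeness took the 3 nearest genes averaging 20 CPM or more in all 9 libraries.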

Additional observations from a re-analysis of the deposited data

How the results depend on the processing

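The cause of these shifts was not tested. In blood the number of the 5 oxidase genes called was 0, but 1 with library totals only (Ncf4), 3 with limma-voom and with the 6 libraries compared (Cyba, Ncf4 and Rac2), and 0 to 3 when a library was left out, the 3 without tumor library 1. All genes called in blood numbered 2917, but 5884 with limma-voom, 4889 with the 6 libraries compared, 1386 at an adjusted p under 0.01, and 1494 (without LLC blood library 2) to 5064 (without tumor library 1) when a library was left out. In tumor against LLC blood the 3 oxidase genes became 5 with library totals and limma-voom, and 2 to 5 when a library was left out, the 5 without tumor library 1. In tumor against healthy blood they were 3 or 4 throughout. Signs turned for small, uncalled changes: Cybb in blood (-0.01 with DESeq2's size factors in edgeR and in DESeq2, -0.048 with upper-quartile factors, -0.004 with the 6 libraries, and -0.055 to 0.032 leaving out a library), Rac1 in tumor against LLC blood (0.013 with DESeq2's size factors and in DESeq2, -0.13 to 0.029 leaving out a library), Cyba there (-0.316 to 0.004 leaving out a library) and Ncf4 in tumor against healthy blood (-0.034 with upper-quartile factors, -0.112 with library totals, -0.046 with limma-voom, -0.087 to 0.162 leaving out a library). The log2 ratio of Rac2 to Rac1 in blood changed sign too, at -0.06 to 0.007 leaving out a library.

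Library totals moved the median of all genes in tumor against LLC blood from -0.03 to -0.23, and in tumor against healthy blood from -0.00 to -0.17; Cyba and Ncf4 changed there by -0.35 and -0.38. The share of called genes that were higher was 59.4% in blood (46.3% with upper-quartile factors, 43.1% without tumor library 1 and 68.7% without LLC blood library 2), 48.3% in tumor against LLC blood (36.3% with library totals) and 50.4% in tumor against healthy blood (40.5% with library totals). The replicate block left the oxidase counts at 0, 3 and 4 and the counts of all genes at 2788, 7455 and 8093, and changed the call of none of the 5. Same-numbered libraries did not deviate together throughout (r of 0.073 to 0.297 in blood, -0.137 to 0.12 in tumor against LLC blood, 0.0499 to 0.0919 in tumor against healthy blood), and 4, 2 and 5 of 6 libraries correlated best with their own number, so the numbers are not shown to pair the samples.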
